A study of Rattus norvegicus with 9 samples.

Results

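The RT1 complex is the major histocompatibility complex of the rat, and its class I genes were followed here in the hypothalamus of 9 male rats aged 13 weeks, 1 array per rat. Members are all probe sets (groups of array probes read as 1 value) whose platform annotation gives a single symbol starting with RT1-, leaving out the class II genes of the RT1-B and RT1-D groups. That rule gave 20 probe sets of 12 genes, out of 31042 probe sets of 14217 named genes on the array. The genes were RT1-A, RT1-A3, RT1-CE5, RT1-CE10, RT1-CE12, RT1-CE16, RT1-M3-1, RT1-N2, RT1-N3, RT1-S3, RT1-T24-3 and RT1-T24-4.

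The 4 noodle-diet rats, numbered 1, 4, 7 and 13, ate a medium-fat feed with instant noodles and their seasonings. The 5 control rats, numbered 2, 5, 8, 11 and 14, ate that feed without the seasonings. In both groups noodles made up 30% of the feed by weight, fat gave 26% of its energy, and intake was matched. Feeding lasted 30 days by one label and 4 weeks by another, while strain and RT1 genotype are not stated in the labels. The hypothalamic peptide gene Pmch measured 11.85 to 12.37 over the 9 rats. All 15 listed hypothalamic genes had a probe set, which the array design fixes, so that count does not check the tissue. All levels are deposited log2 values, which can be compared between rats within a probe set but not between probe sets.

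Class I molecules consist of a heavy chain, coded in the RT1 complex, and the invariant chain beta-2-microglobulin, coded by B2m. They carry peptides from inside the cell to its surface, where CD8 T cells and natural killer cells read them. The heavy chain genes differ between rat strains in sequence and in number. Classical genes such as RT1-A present peptides widely, and the nonclassical genes, among them the RT1-CE, RT1-M, RT1-N, RT1-S and RT1-T groups, have narrower or less known roles. In brain, class I genes are active in endothelial cells, in microglia and at low levels in neurons. Interferon raises them through promoter elements shared by many class I genes.

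The promoters of 4 of the 5 genes whose levels varied between rats are shown, because those levels moved together or in opposition. They are RefSeq sequences of build GRCr8, from 250 bases before to 50 after the annotated start, and 11 of the 12 genes had an entry. RT1-CE16 lies at chr20:3265394-3265693 on the minus strand, RT1-S3 at chr20:2675278-2675577, RT1-N2 at chr20:2646080-2646379 and RT1-T24-3 at chr20:2722875-2723174, these 3 on the plus strand. Capitals mark 4 motifs searched on both strands, namely GGGATTCCC, TTTCACTT, TTTC followed by any 2 bases and TTTC, and CCAAT.
RT1-CE16: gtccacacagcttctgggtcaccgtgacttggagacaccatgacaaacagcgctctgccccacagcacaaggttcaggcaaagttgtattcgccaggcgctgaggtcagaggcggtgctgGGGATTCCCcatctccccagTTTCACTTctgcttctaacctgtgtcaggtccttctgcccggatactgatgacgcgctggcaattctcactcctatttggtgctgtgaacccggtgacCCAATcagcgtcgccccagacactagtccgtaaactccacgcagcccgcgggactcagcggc
RT1-S3: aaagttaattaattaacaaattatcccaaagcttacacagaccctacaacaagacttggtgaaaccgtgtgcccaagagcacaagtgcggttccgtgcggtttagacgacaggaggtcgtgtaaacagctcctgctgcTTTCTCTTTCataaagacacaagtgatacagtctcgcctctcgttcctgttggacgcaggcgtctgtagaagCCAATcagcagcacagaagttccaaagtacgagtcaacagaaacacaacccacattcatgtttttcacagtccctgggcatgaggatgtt
RT1-N2: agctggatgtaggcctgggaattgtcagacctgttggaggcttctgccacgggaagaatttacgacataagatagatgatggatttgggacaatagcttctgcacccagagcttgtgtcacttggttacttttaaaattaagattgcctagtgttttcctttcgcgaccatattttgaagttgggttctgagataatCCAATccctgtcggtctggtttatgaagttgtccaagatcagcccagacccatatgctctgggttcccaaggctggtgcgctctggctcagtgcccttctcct
RT1-T24-3: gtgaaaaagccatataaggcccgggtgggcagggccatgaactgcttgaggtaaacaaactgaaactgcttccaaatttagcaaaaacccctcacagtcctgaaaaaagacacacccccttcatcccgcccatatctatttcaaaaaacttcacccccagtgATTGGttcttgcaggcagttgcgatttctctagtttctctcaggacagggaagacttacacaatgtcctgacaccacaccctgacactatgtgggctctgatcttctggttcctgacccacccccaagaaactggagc

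The promoter of RT1-CE16 held GGGATTCCC, the core of an NF-kB element known from class I promoters, and TTTCACTT, which matches part of an interferon response element. GGGATTCCC was found in 122 of all 33469 promoters (0.365%), and in 8 of the 15 RT1-CE and RT1-A promoters. Among 18 promoters of other RT1 class I genes it was found in 0. TTTCACTT was found in 580 of all promoters (1.73%), in 10 of the 15 and in 3 of the 18. The RT1-S3 promoter held the TTTC pair, which 1312 promoters hold (3.92%), and this pair overlaps TTTCACTT in RT1-N3. CCAAT was found in 9 of the 11 member promoters, against 37.5% of all promoters, and the 4 shown are among the 9. It was also in 9 of 9 RT1 class II promoters, so it is not particular to class I. The promoter of RT1-T24-4, the fifth variable gene, held none of the 4 motifs and is not shown, and neither did that of RT1-CE12. A match describes these letters in the reference genome and says nothing of binding or of the sequence these rats carry.

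Of the 20 class I probe sets, 8 ranged over more than 0.05 log2 units across the 9 rats (40%), against 3.94% of all probe sets. They are RT1-CE16, 4 probe sets of RT1-S3, RT1-N2, RT1-T24-3 and RT1-T24-4, and are called variable below. The other 12 ranged over less than 0.01, from 0.00025 to 0.0016. Those 12 cover RT1-A, RT1-A3, RT1-CE5, RT1-CE10, RT1-CE12, RT1-M3-1 and RT1-N3 at mean levels of 5.37 to 7.84. Most probe sets of this deposit are compressed in the same way, so a narrow range is not evidence of equal expression. RT1-M3-1, counterpart of the mouse H2-M3 gene that presents formylated peptides, is among them. A high share of variable probe sets was not particular to class I. It was 6 of 11 in RT1 class II genes, 19 of 22 in meningeal and 19 of 23 in oligodendrocyte markers, but 1 of 18 in endothelial markers.

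RT1-CE16, a nonclassical gene of the RT1-CE group, measured 5.97, 5.86, 6.94 and 7.06 in noodle-diet rats 1, 4, 7 and 13. It measured 5.91, 7.08, 7.88, 7.09 and 5.88 in control rats 2, 5, 8, 11 and 14. The values fell into 3 separate levels. Noodle-diet rats 1 and 4 and control rats 2 and 14 lay within 0.12 log2 units of each other, at 5.86 to 5.97. Noodle-diet rats 7 and 13 and control rats 5 and 11 lay within 0.15, at 6.94 to 7.09, and control rat 8 stood alone at 7.88. The 2 gaps between these levels made up 86.9% of the range of 2.02. Of 140 variable probe sets ranging over 1 log2 unit or more, 5 had 2 largest gaps of at least this share, RT1-CE16 included. Each diet had rats at the lower and the middle level, and the upper level held 1 control rat.

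**Figure D1:**
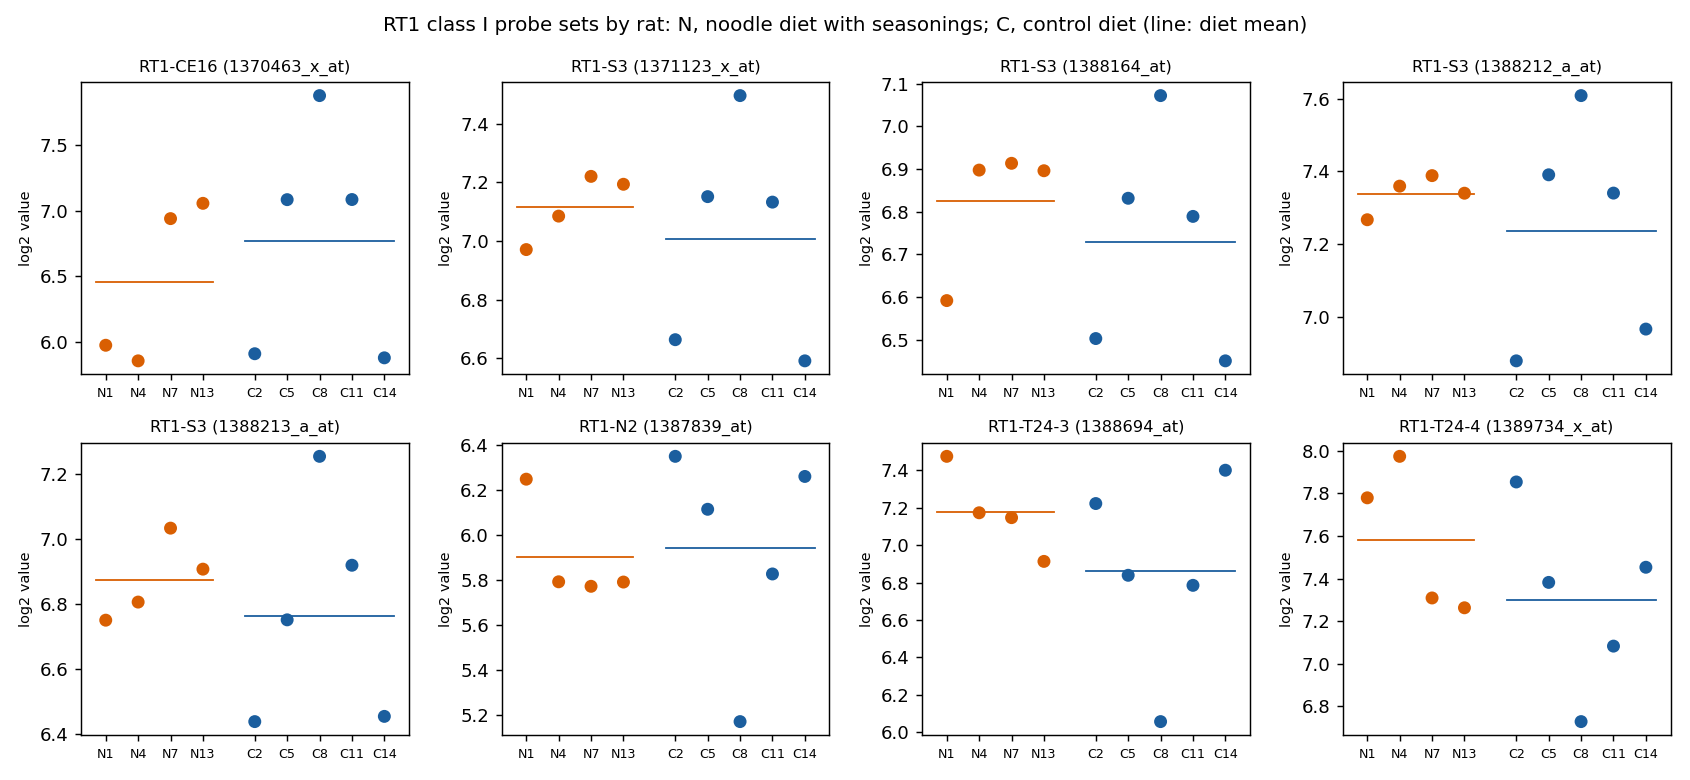
Log2 value (vertical axes, each with its own scale) of the 8 variable RT1 class I probe sets in each rat (horizontal axes). Orange points are noodle-diet rats and blue points control rats, with lines at diet means. Control rat 8 is the highest or the lowest point in every panel, as in RT1-CE16 at 7.88 and RT1-N2 at 5.17.

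RT1-S3, the rat counterpart of the mouse gene for Qa-1, a ligand of natural killer cell receptors, is read by 4 probe sets. In the first it measured 6.97, 7.09, 7.22 and 7.19 in noodle-diet rats 1, 4, 7 and 13, against 6.66, 7.15, 7.50, 7.13 and 6.59 in control rats 2, 5, 8, 11 and 14. In the second the values were 6.59, 6.90, 6.91 and 6.90 in the noodle-diet rats and 6.50, 6.83, 7.07, 6.79 and 6.45 in the control rats, in the same order of rats. Both probe sets were highest in control rat 8 and lowest in control rats 2 and 14. In the third the values were 7.27, 7.36, 7.39 and 7.34 in the noodle-diet rats and 6.88, 7.39, 7.61, 7.34 and 6.97 in the control rats. In the fourth they were 6.75, 6.81, 7.03 and 6.91 in the noodle-diet rats and 6.44, 6.75, 7.26, 6.92 and 6.45 in the control rats. All 4 probe sets thus had control rat 8 at the top and control rats 2 and 14 at the bottom. They share a gene and are not independent readings of it.

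RT1-N2, a nonclassical gene close to RT1-S3 on chromosome 20, ran the other way. It measured 6.25, 5.79, 5.77 and 5.79 in noodle-diet rats 1, 4, 7 and 13, against 6.35, 6.11, 5.17, 5.83 and 6.26 in control rats 2, 5, 8, 11 and 14. Control rat 8 was 0.60 below the next rat, a gap of 51.0% of the range. Noodle-diet rat 1 and control rats 2 and 14, the 3 highest rats here, were the 3 lowest in each of the RT1-S3 probe sets.

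RT1-T24-3 and RT1-T24-4 are nonclassical genes that follow RT1-S3 along chromosome 20 in the reference annotation. RT1-T24-3 measured 7.48, 7.17, 7.15 and 6.91 in noodle-diet rats 1, 4, 7 and 13, against 7.22, 6.84, 6.06, 6.79 and 7.40 in control rats 2, 5, 8, 11 and 14. RT1-T24-4 measured 7.78, 7.97, 7.31 and 7.26 in the noodle-diet rats, against 7.85, 7.38, 6.73, 7.08 and 7.45 in the control rats. Both were lowest in control rat 8, by 0.73 in RT1-T24-3 and 0.35 in RT1-T24-4. In both, the 4 highest rats were noodle-diet rats 1 and 4 and control rats 2 and 14, the same rats that formed the lower level of RT1-CE16. The step to the next rat was small, 0.026 in RT1-T24-3 and 0.071 in RT1-T24-4.

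**Figure D2:**
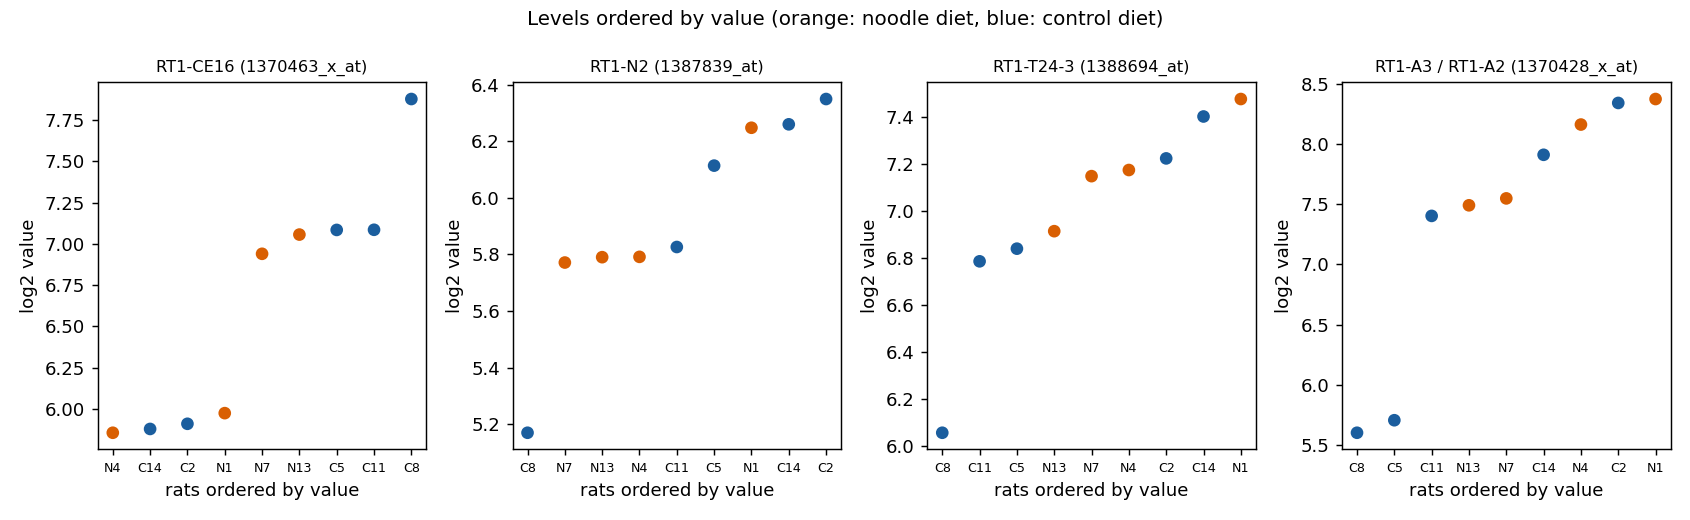
Log2 values of RT1-CE16, RT1-N2, RT1-T24-3 and a probe set annotated to both RT1-A3 and RT1-A2, with the rats ordered by value on each horizontal axis (orange noodle diet, blue control diet). RT1-CE16 shows 3 levels, while RT1-N2 and RT1-T24-3 each leave control rat 8 alone at the bottom.

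Control rat 8 was the highest or lowest rat in 8 of the 8 variable class I probe sets, highest in 5 and lowest in 3. Over all 1223 variable probe sets it was an extreme in 41.0%, against 38.9% for noodle-diet rat 1 and 33.9% for control rat 14. A probe set was called stepped where its largest gap reached 0.5 log2 units and 50% of its range, which held for 42 probe sets in all. RT1-N2 and RT1-T24-3 were stepped, each by the distance of control rat 8, and RT1-CE16 fell just short at 47.7% of its range. With control rat 8 left out, a choice made after the values were seen, RT1-CE16 was the only stepped member. Besides each other, RT1-N2 and RT1-T24-3 shared their split with Eid1, Ccdc96 and an unnamed probe set. Eid1, a regulator of transcription and differentiation, measured 8.37 in control rat 8 and 9.65 to 10.42 in the others, and Ccdc96 measured 6.03 against 6.54 to 7.03.

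The 4 rats of the lower RT1-CE16 level were also the 4 highest or 4 lowest rats in 28 of the other 1222 variable probe sets (2.29%). Among the 7 other variable members this held for 3, RT1-T24-3 and RT1-T24-4 with those rats highest and the first RT1-S3 probe set with those rats lowest. Of the 6 variable class II probe sets it held for 1, a probe set of RT1-Bb, the beta chain of the rat RT1-B molecule, with those rats lowest. RT1-Bb measured 5.36, 5.47, 6.45 and 6.72 in noodle-diet rats 1, 4, 7 and 13, against 5.30, 7.39, 7.70, 6.19 and 5.35 in control rats 2, 5, 8, 11 and 14. Another RT1-Bb probe set was lowest in control rat 8, at 6.04 against 6.11 to 6.64 in the others, so 2 probe sets of 1 gene ordered the rats differently. Pearson r with RT1-CE16 over the 9 rats was 0.94 for the first RT1-Bb probe set and -0.74 for the other. It was 0.21 for RT1-Da, 0.20 for RT1-Db1, and 0.39 and -0.53 for the variable RT1-Ba probe sets. In the RefSeq annotation RT1-S3, RT1-T24-4 and RT1-T24-3 stand close together, followed by RT1-CE16 beyond 44 other annotated genes, and RT1-Bb lies further along.

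Of 6 RT1 probe sets annotated to several genes, 1 was variable, and which of its genes it reads cannot be told. This probe set, annotated to RT1-A3 and RT1-A2, measured 8.37, 8.16, 7.55 and 7.49 in noodle-diet rats 1, 4, 7 and 13, against 8.34, 5.71, 5.60, 7.40 and 7.91 in control rats 2, 5, 8, 11 and 14. Control rats 5 and 8 lay 1.70 below the next rat, 61.2% of the range. Its 4 highest rats were those of the lower RT1-CE16 level. The identifiers ending in _x_at mark, by the manufacturer's convention, probes that can match several sequences, which applies to RT1-CE16, RT1-T24-4, the probe set of RT1-A3 and RT1-A2, and the first RT1-S3 probe set. Signal from related class I genes, and sequence differences under the probes, cannot be told apart from expression in such values, and neither was tested.

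**Figure D3:**
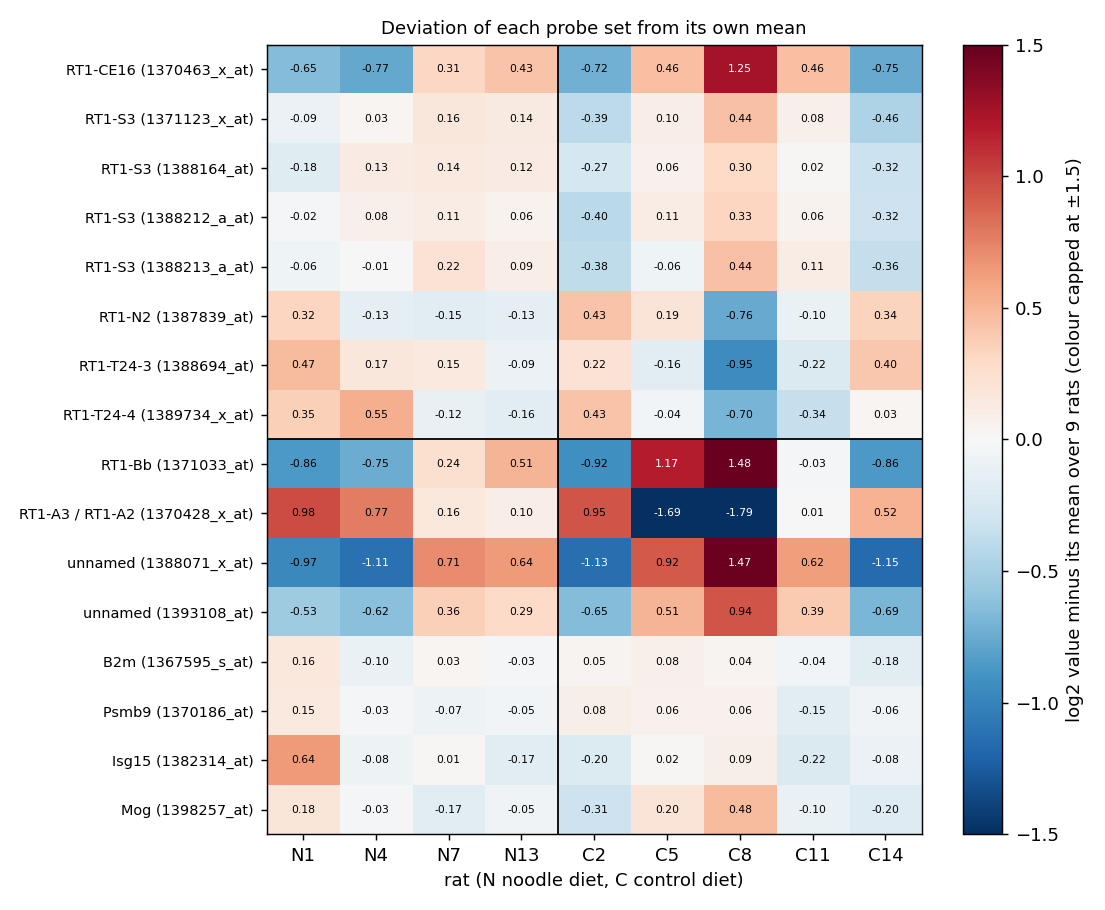
Deviation of each probe set (rows) from its own mean over the 9 rats, in log2 units (numbers and colour), for the rats in columns, noodle diet left of control diet. Above the line are the 8 variable members, and below it RT1-Bb, the probe set of RT1-A3 and RT1-A2, 2 unnamed probe sets, B2m, Psmb9, Isg15 and Mog; the rows of RT1-CE16 and RT1-Bb share their lowest 4 rats.

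No class I probe set passed the test between diets. By limma 0 of 20 had an adjusted p under 0.05, against 0% of all 31042 probe sets. An unadjusted limma p under 0.05 was found for 0 of 20, against 712 of all 31042. Only 11 of those 712 were among the 1223 variable probe sets. The adjusted p of each member rounded to 1. The diets' values overlapped in all 20 members, against 0.567% of all probe sets in which they were fully separate. Of the 20, 12 differences were above 0 and 8 below, with a median of 8.6e-05 against -5e-06 over all probe sets. Most values behind both medians are compressed. Of the 8 variable members, 6 differences were above 0 and 2 below, with a median of 0.11. Over all 1223 variable probe sets 635 were above 0 and 588 below, with a median of 0.0036. The RT1-S3 probe sets among those 6 share a gene and are not independent.

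RT1-CE16 averaged 6.46 ± 0.63 in noodle-diet rats, against 6.77 ± 0.86 in control rats (SD, 4 and 5 rats), and the limma estimate was -0.31 (SE 0.49, 95% interval -1.45 to 0.83). RT1-T24-3 averaged 7.18 ± 0.23 in noodle-diet rats, against 6.86 ± 0.52 in control rats, and the estimate was 0.32 (SE 0.27, interval -0.30 to 0.94). RT1-T24-4 averaged 7.58 ± 0.35 in noodle-diet rats, against 7.30 ± 0.42 in control rats, and the estimate was 0.28 (SE 0.25, interval -0.30 to 0.86). RT1-N2 averaged 5.90 ± 0.23 in noodle-diet rats, against 5.94 ± 0.48 in control rats, and the estimate was -0.044 (SE 0.25, interval -0.62 to 0.53). In each of the 4 genes the 95% interval included 0 and differences in either direction.

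The 4 RT1-S3 probe sets differed by 0.096 to 0.11, with intervals from -0.32 at the lowest to 0.54 at the highest. Their SD was 0.052 to 0.16 on the noodle diet and 0.26 to 0.38 on the control diet, where rats 2, 8 and 14 lay at the ends. Without control rat 8 the difference of RT1-CE16 became -0.033, that of RT1-T24-3 0.12, that of RT1-T24-4 0.14 and that of RT1-N2 -0.24. Without control rat 14 the RT1-S3 differences became 0.0066 to 0.034, and without control rat 8 0.18 to 0.23. RT1-N2 turned to 0.058 without control rat 2 and to 0.035 without control rat 14. The size of each of these differences thus moved with single control rats.

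**Figure D4:**
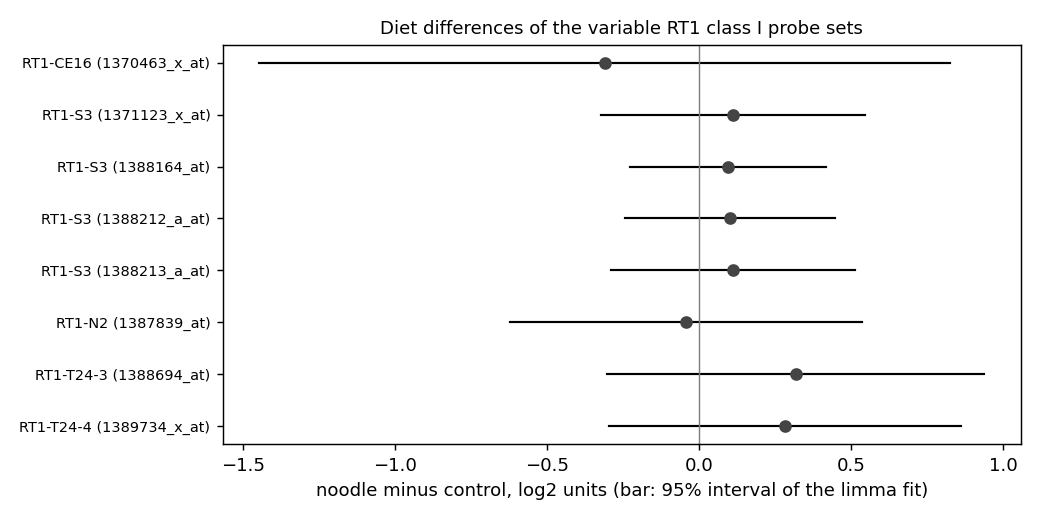
Difference between diets, noodle minus control in log2 units (horizontal axis), for the 8 variable RT1 class I probe sets (rows). Points are limma estimates and bars their 95% intervals; every bar crosses 0, and RT1-CE16 has the widest, from -1.45 to 0.83.

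Genes of the class I pathway did not pass the test either. Of 28 listed genes of peptide loading and class I expression 26 were measured, 14 higher and 12 lower on the noodle diet, 0 past the test, with a median difference of 1.1e-05. B2m, the partner chain of class I, measured 11.44, 11.19, 11.32 and 11.26 in noodle-diet rats 1, 4, 7 and 13, against 11.33, 11.36, 11.32, 11.24 and 11.11 in control rats 2, 5, 8, 11 and 14. Control rat 8, at an extreme in each variable class I probe set, ranked 4 from the top in B2m. Psmb9, a subunit of the immunoproteasome that cuts peptides for class I, ranged from 6.91 to 7.13 in the noodle-diet rats and from 6.82 to 7.06 in the control rats. The transporter genes Tap1 and Tap2, which bring peptides to class I, and a second B2m probe set had compressed values.

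Variable interferon-responsive genes were mostly highest in a different animal. Of 40 listed genes 36 were measured, 24 higher and 12 lower on the noodle diet, 0 past the test. Over all probe sets 14913 were higher and 16129 lower. The median difference of the 36 listed genes was 6.4e-05, most of it compressed values. Noodle-diet rat 1 was highest in 7 of the 8 variable probe sets. Isg15, a ubiquitin-like protein induced by interferon, measured 7.60 there, 6.79 to 6.98 in the other noodle-diet rats and 6.75 to 7.05 in the control rats. Ifitm3, an antiviral membrane protein, was highest in that rat at 8.79, against 8.52 in the next, control rat 8, and Ifi27 reached 10.38 in both. The class I genes were not of one kind in that rat. It was the highest of the 9 in RT1-T24-3, the probe set of RT1-A3 and RT1-A2, B2m and Psmb9, and ranked 3 from the top in RT1-N2 and RT1-T24-4. It was at the lower level of RT1-CE16 and ranked 7 from the top in each RT1-S3 probe set. Meningeal markers were also highest there, in 15 of 19 variable probe sets, with a mean deviation of 0.74, against 0.56 in the next, control rat 8. The part of meningeal tissue in the interferon-responsive values was not tested.

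Over all probe sets 14913 were higher and 16129 lower on the noodle diet. Genes neighbouring the RT1 complex were measured for 73 of 85, with 17 higher, 56 lower and 0 past the test. Their median was -6.2e-05, most of it compressed values, so most of these signs belong to differences near 0. Control rat 8 was at an extreme in 8 of their 10 variable probe sets, against 41.0% of all variable probe sets. This was not particular to the region, since it held for 17 of 19 variable probe sets of oligodendrocyte markers. Mog, a myelin glycoprotein gene of the region, measured 9.26, 9.05, 8.91 and 9.03 in noodle-diet rats 1, 4, 7 and 13, against 8.77, 9.28, 9.56, 8.98 and 8.88 in control rats 2, 5, 8, 11 and 14. Pfdn6, a prefoldin subunit gene of the RT1 region, measured 9.13 to 9.19 in noodle-diet rats and 9.07 to 9.22 in control rats, and Tubb5, a tubulin gene, 8.56 to 8.66 in noodle-diet rats and 8.51 to 8.77 in control rats. A probe set of Gabbr1, a GABA-B receptor subunit gene, measured 8.97 to 9.28 in noodle-diet rats and 9.06 to 9.30 in control rats. Class II genes and their partners were measured for 8 of 12, with 1 higher, 7 lower, 0 past the test and a median of -0.00014. RT1-Ba was counted there by a compressed probe set, while its variable ones differed by -0.13 and 0.18. Genes of T and natural killer cells and of class I receptors were measured for 16 of 20, 0 of them variable, at mean levels of 5.59 to 6.34.

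For each variable member that was not stepped, the 3 named genes of highest Pearson r over the 9 rats were taken as a description, since they were chosen for that value. For RT1-S3 they included Car2, Tspan2 and Bcas1, with r of 0.94, 0.92 and 0.92 for the third probe set (0.82, 0.83 and 0.92 without the 2 rats farthest from its median). Spearman's rho was 0.73, 0.73 and 0.95. The other RT1-S3 probe sets added Abhd16a, a phospholipase gene of the RT1 region (r = 0.87), Tp53inp2 (0.85) and Aldoc, the brain aldolase (0.83). Without the 2 farthest rats r fell to 0.61 for both Tp53inp2 and Bcas1 with the second probe set, and to 0.67 for Tspan2 with the fourth. It was 0.83 for both Abhd16a and Aldoc.

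Oligodendrocyte markers, a list added after the values were seen, had 11 of 13 measured genes variable, and control rat 8 was at an extreme in 17 of 19 variable probe sets. Their mean deviation was 0.21, -0.034, -0.10 and -0.038 in noodle-diet rats 1, 4, 7 and 13, against -0.23, 0.13, 0.38, -0.11 and -0.20 in control rats 2, 5, 8, 11 and 14. Control rat 8 was highest and control rats 2 and 14 were lowest, as in RT1-S3, but noodle-diet rat 1 was next to the highest here and ranked 7 from the top in RT1-S3. The myelin genes Mbp, Mobp, Cnp and Cldn11 each had that rat at rank 2 from the top. Fewer cells of a type and less RNA per cell cannot be told apart in such tissue, and the part of myelinating cells in the RT1-S3 values was not tested. The same deviation ran from -0.12 to 0.050 in noodle-diet rats and from -0.082 to 0.18 in control rats for microglia. For meninges it ran from -0.53 to 0.74 in noodle-diet rats and from -0.63 to 0.56 in control rats. Of 13 measured endothelial genes 1 was variable.

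For RT1-CE16 the genes of highest r were Tspan2 (0.87) and Gpsm3 (0.85), a regulator of G protein signalling that lies in the RT1 complex. These r values span the separate levels of RT1-CE16, each of 4 rats or fewer, and no r within a level was taken. Gpsm3 measured 6.75, 6.64, 6.87 and 6.91 in noodle-diet rats 1, 4, 7 and 13, against 6.80, 6.82, 7.09, 6.82 and 6.78 in control rats 2, 5, 8, 11 and 14. It had its 4 lowest values in the rats of the lower RT1-CE16 level, with a step of 0.015 to the next rat. For RT1-T24-4 the genes were Wasl, an actin nucleation factor (r = 0.90), Ube3a, a ubiquitin ligase (0.89), and Sgip1 (0.86), all lowest in control rat 8.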

How the data were processed

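The authors deposited 1 table of log2 values, 31042 probe sets per array once 57 control probe sets had been dropped here; no label states the scale, which was read off the values (5.13 to 13.7). Labelled cRNA was made from 100 ng total RNA, per the labels. Summarization and normalization are not stated in the labels. Array medians lay between 6.777 and 6.785, and values were used as deposited. Symbols came from the platform annotation (20826 probe sets with 1 symbol, 436 with several, 9780 unnamed here); 0 symbols changed by gene number in the RefSeq table of build GRCr8. Diets were compared with limma 3.58.1 in R 4.3.3 (a trended variance prior, 2-sided tests, Benjamini-Hochberg over all probe sets, threshold 0.05). The fit was also run on simulated data with shifts many times the SD of each probe set. That run says nothing of power for smaller differences. With 1 array per rat, p-values rest on the variation among 9 animals, whose number limits precision. All members are reported; variable ones (range over 0.05) are named with all values, compressed ones in ranges. Per list, 1 probe set per gene (highest mean) was counted, and up to 4 variable genes of highest mean could be named. Members and lists were chosen with earlier results of these data known. Alternatives were other normalizations, variance models, array weights, a filter at the 20th percentile of mean, and each rat left out.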

Additional observations from a re-analysis of the deposited data

Results flagged for a closer look

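A rule for single animals far from the rest of their diet was applied to 36 groups (2 diets for each variable class I probe set and pathway gene named), and it found 3, where chance gives about 1.8. All 3 concern noodle-diet rat 1. Its RT1-N2 value was 6.25, with the other noodle-diet rats at 5.77 to 5.79. Its value in the second RT1-S3 probe set was 6.59, with the others at 6.90 to 6.91. Its value of Gabbr1, a gene of the RT1 region, was 8.97, with the others at 9.27 to 9.28.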

How the results depend on the processing

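Calls did not depend on the settings tried: 0 probe sets and so 0 members passed under quantile normalization, a common array median, no intensity trend, robust empirical Bayes, array weights, a filter on low means, and with each rat left out. The 4 RT1-S3 probe sets, RT1-CE16, RT1-T24-3 and RT1-T24-4 kept the direction of their differences in all 15 alternatives, without passing. RT1-N2 kept it in 12 of 14, down to -0.24 without control rat 8, and turned to 0.058 without control rat 2 and to 0.035 without control rat 14; the filter on low means left it out. Dropping the intensity trend, robust empirical Bayes and the filter on low means cannot change an estimate, so those settings could not turn a direction. With single rats left out RT1-CE16 ran from -0.53 to -0.033, and array weights gave -0.057. The number of stepped members was 2 (RT1-N2 and RT1-T24-3), 3 with a gap of 0.4 of the range (RT1-CE16 added), and 1 without control rat 8 (RT1-CE16). The 8 variable members remained 8 at a range over 0.1. No paired analysis was possible because the rats of the 2 diets share no number. The compressed values of the other 12 members, and 4 against 5 rats, limit what could be seen.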

Other observations

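Among the probe sets in which the rats of the lower RT1-CE16 level were the 4 highest or 4 lowest, 2 unnamed ones had steps wider than those of RT1-T24-3, RT1-T24-4 and RT1-S3. The first measured 6.84 to 7.02 in those 4 rats and 8.61 to 9.46 in the other 5, a step of 1.59, against 0.97 in RT1-CE16. The second measured 5.75 to 5.90 in those 4 and 6.72 to 7.38 in the other 5, a step of 0.82. In both, control rat 8 was highest, as in RT1-CE16. The identifier of the first ends in _x_at, so its probes can match several sequences. Steps of RT1-Bb (0.72) and of the probe set of RT1-A3 and RT1-A2 (0.36) were also wider than those of RT1-T24-3, RT1-T24-4 and RT1-S3. The remaining ones included Kifap3, a kinesin adaptor (step 0.088), Ube3a (0.079), Marcks, an actin-binding substrate of protein kinase C (0.027), and Col11a2, a collagen gene of the RT1 region (0.019).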
